A study of Mus musculus with 3 samples.

Results

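TM5 is one of 11 groups into which clusters of the mouse iridocorneal angle that held trabecular meshwork (TM) cells had been divided. It is marked by *Tnc*, *Svep1* and *Chil1*. Not every TM group is meshwork. The paper identified TM1 as keratocytes and TM2 as corneal endothelium. It interpreted TM6 to TM9 as uveal cells and TM10 as possible corneal stroma. The other TM cells below are all groups but TM5. The members of TM5 were every kept cell that carried the study's TM5 cluster label, matched by barcode to the UMI count matrix of its library. They numbered 284 of 26008 kept cells, and of the 8073 cells in all TM groups. Control replicate 1 gave 54 of them, control replicate 2 gave 104 and the *Angpt1*ΔNC library gave 126. No TM5 barcode was present among the kept cells of another library.

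The controls carried floxed *Angpt1* alleles without Cre, and the knockout carried the same floxed alleles with *Wnt1*-Cre, which recombines in cells of neural crest origin. All mice were 6 weeks old and of a mixed background that had been crossed onto ICR. Each library pooled the dissected angle tissue of several eyes and was sequenced by droplet single-cell RNA-seq, in which each transcript is counted once through its molecular tag (UMI). With 2 control libraries and 1 knockout library, genotype, pool and library cannot be told apart. Both sexes were said to be pooled, but the TM5 cells of both controls held 0 *Xist* UMIs, the transcript of the inactive X chromosome. In the *Angpt1*ΔNC library 79 of 126 TM5 cells had an *Xist* UMI and no Y-linked UMI, and 39 had a Y-linked UMI and no *Xist*. The sex of the cells therefore differed between the groups along with genotype, and the main results were repeated in the cells with a Y-linked UMI and no *Xist*.

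TM5 cells had high UMI counts per cell. Their median UMI count was 10369.5 in control 1, 10840 in control 2 and 9521 in *Angpt1*ΔNC, against 5820 to 7301 in the other TM cells of the same libraries. TM4 was closer to TM5, with medians of 8341, 8884 and 9225 UMIs. The summed TM5 counts were 585033, 1132121 and 1281762 UMIs. Levels below are the mean over cells of UMIs per 10,000 UMIs of the cell, given in the order control 1, control 2 and *Angpt1*ΔNC, with 1 value per library and no replicate error for the knockout.

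The trabecular meshwork is a sieve of extracellular matrix beams, covered by cells of neural crest origin, through which aqueous humor leaves the eye on its way to Schlemm's canal. The part next to the canal lies in a loose matrix rich in fibronectin, proteoglycans and matricellular proteins, the class of secreted matrix proteins that modulate cell attachment rather than bear load. Tenascin-C (*Tnc*) is one of these. *Svep1* encodes a large secreted adhesion protein, and *Chil1* encodes a chitinase-like secreted protein abundant in the meshwork.

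*Tnc* set TM5 apart in every library. Its level was 4.84, 4.09 and 2.75 in TM5 and 0.256, 0.392 and 0.382 in the other TM cells, and TM5 ranked first among the 11 groups in each library. TM4 was above the other TM cells as a whole, at 1.00, 0.953 and 1.18, with a *Tnc* UMI in 35.0%, 35.8% and 37.3% of its cells. The gene lies on chromosome 4 (mm10 chr4:63959785-64047015, minus strand). A *Tnc* UMI was found in 74.1% of TM5 cells of control 1 (95% exact binomial interval 60.3 to 85.0%), 69.2% of control 2 (59.4 to 77.9%) and 67.5% of *Angpt1*ΔNC (58.5 to 75.5%). After each cell was thinned to 1000 UMIs these shares were 24.1%, 29.8% and 16.7%, against 2.00 to 3.46% in the other TM cells. Cells of the 2 surface epithelium clusters, whose median depth was 15135 to 17717 UMIs, gave a *Tnc* UMI in 17.5 to 20.1% of cells and in 1.98 to 3.46% after thinning.

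*Svep1* and *Chil1* did not set TM5 apart in the same way. The *Svep1* level was 1.27, 1.58 and 1.03, the highest of the TM groups in both controls but only the fourth in *Angpt1*ΔNC, below TM11, TM2 and TM4. *Svep1* UMIs were nearly absent from surface epithelium, at 1 of 989, 3 of 1012 and 0 of 911 cells. For the 0 of 911 cells the exact 95% upper limit on the share of cells with a UMI was 0.404%. The *Chil1* level was 25.6, 29.5 and 7.11 in TM5 and 51.3, 56.0 and 27.9 in TM4, so TM5 ranked below TM4 in every library and below TM11 as well in *Angpt1*ΔNC. *Myoc*, the glaucoma gene myocilin, was also lower in TM5, at 6.83, 13.5 and 7.23, than in TM4, at 62.8, 59.4 and 23.2. Thus *Tnc* was highest in TM5 in every library, while *Chil1* and *Myoc* were shared with TM4 at higher levels there. The cells had been grouped by the same genes, so these levels describe the label and do not test it. The plot of marker levels by group shows these orders.

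**Figure D1:**
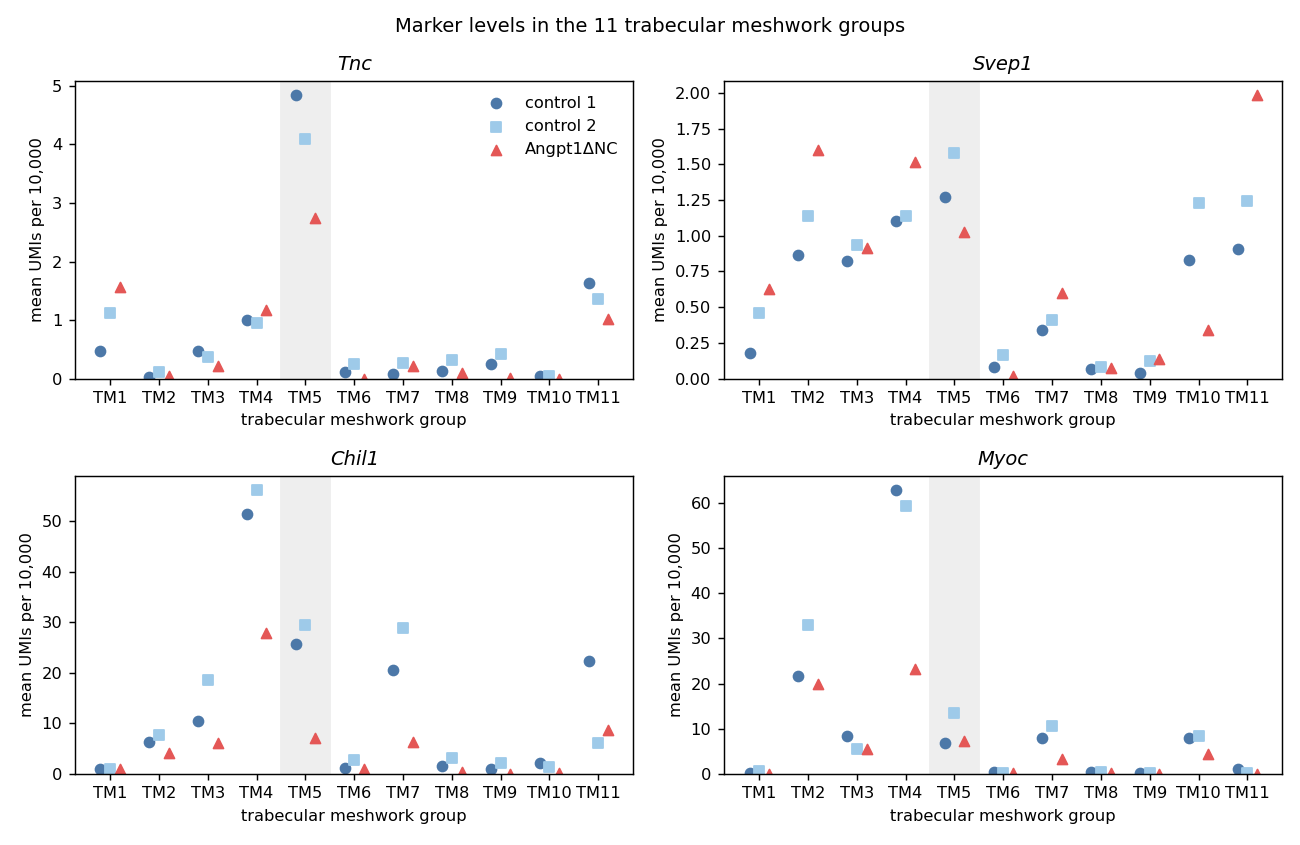
Mean UMIs per 10,000 of *Tnc*, *Svep1*, *Chil1* and *Myoc* (vertical axes) in TM1 to TM11 (horizontal axes), with 1 point per library and TM5 shaded. *Tnc* was highest in TM5 in every library, at 4.84, 4.09 and 2.75, whereas *Chil1* and *Myoc* were highest in TM4.

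Most TM5 cells carried more than 1 of the markers. At least 2 of *Tnc*, *Svep1* and *Chil1* were detected in 45 of 54 cells of control 1, 97 of 104 of control 2 and 83 of 126 of *Angpt1*ΔNC, and all 3 in 24, 51 and 36. No marker was seen in 0, 1 and 6 cells. This was not particular to TM5, since in TM4 at least 2 were detected in 180 of 286, 210 of 330 and 210 of 311 cells. In TM5 *Tnc* and *Myoc* were found together in 24, 39 and 28 cells. *Tnc* alone of the pair was found in 16, 33 and 57, and *Myoc* alone in 12, 20 and 26. *Tnc* UMIs per cell ranged up to 32, 29 and 30. Over 3122 genes the log levels of TM5 correlated most closely with TM4 in control 1 and *Angpt1*ΔNC (r = 0.889 and 0.938) and with TM1 in control 2 (r = 0.892, against 0.886 for TM4). TM5 of the 2 controls correlated with each other at r = 0.968. Genes are not independent replicates, so these r values describe the libraries only.

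The genes with the highest level in TM5 relative to the other TM cells included secreted matrix and signaling genes. The cells had been grouped by the same genes, so these values describe the group and were not tested. Among 3320 genes detected in at least 25% of the TM5 cells of every library, 64 were at least 2-fold higher in TM5 in all 3 libraries and 49 at least 2-fold lower, with 0.1 added to each level.

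Matrix genes led the list. *Cilp2*, a cartilage intermediate layer protein, was at 4.26, 4.49 and 2.01 in TM5 and at 0.260, 0.391 and 0.442 in the other TM cells. Fibronectin (*Fn1*), the main cell-binding glycoprotein of the loose matrix, was at 13.7, 15.8 and 13.9 against 2.48, 3.30 and 3.72. Fibromodulin (*Fmod*), a small proteoglycan that binds collagen fibrils, was at 33.3, 34.1 and 32.7 against 6.32, 7.13 and 14.1. *Fmod* and *Fn1* levels differed little among the 3 libraries in TM5, and those of *Cilp2* were lower in *Angpt1*ΔNC than in both controls. *Ltbp1*, which holds latent TGF-beta in the matrix, and *Itgbl1*, an integrin-beta-like secreted protein, were also among the 20.

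Signaling genes formed a further part. *Fgf18*, a fibroblast growth factor, was at 6.46, 4.85 and 5.79 in TM5 against 0.814, 0.816 and 1.19. *Hbegf*, a ligand of the EGF receptor, was at 12.9, 11.7 and 15.1 against 2.67, 3.58 and 5.49. The chemokine *Cxcl14* was at 7.26, 5.02 and 4.17 against 1.01, 1.20 and 1.24. *Gpha2*, a subunit of the glycoprotein hormone thyrostimulin, was at 11.5, 8.25 and 3.56 against 1.34, 1.15 and 1.01. *Fgf18* ranked first of the 11 groups in every library and *Hbegf* first or second, while *Cxcl14* and *Gpha2* were lowest in *Angpt1*ΔNC.

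Further genes of the 20 were *Fam180a*, *Fibin*, *Slc39a4*, *S100a4*, *Nupr1*, *Map6*, *Cda* and *Fxyd5*, with ratios from 3.40 to 4.42.

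**Figure D2:**
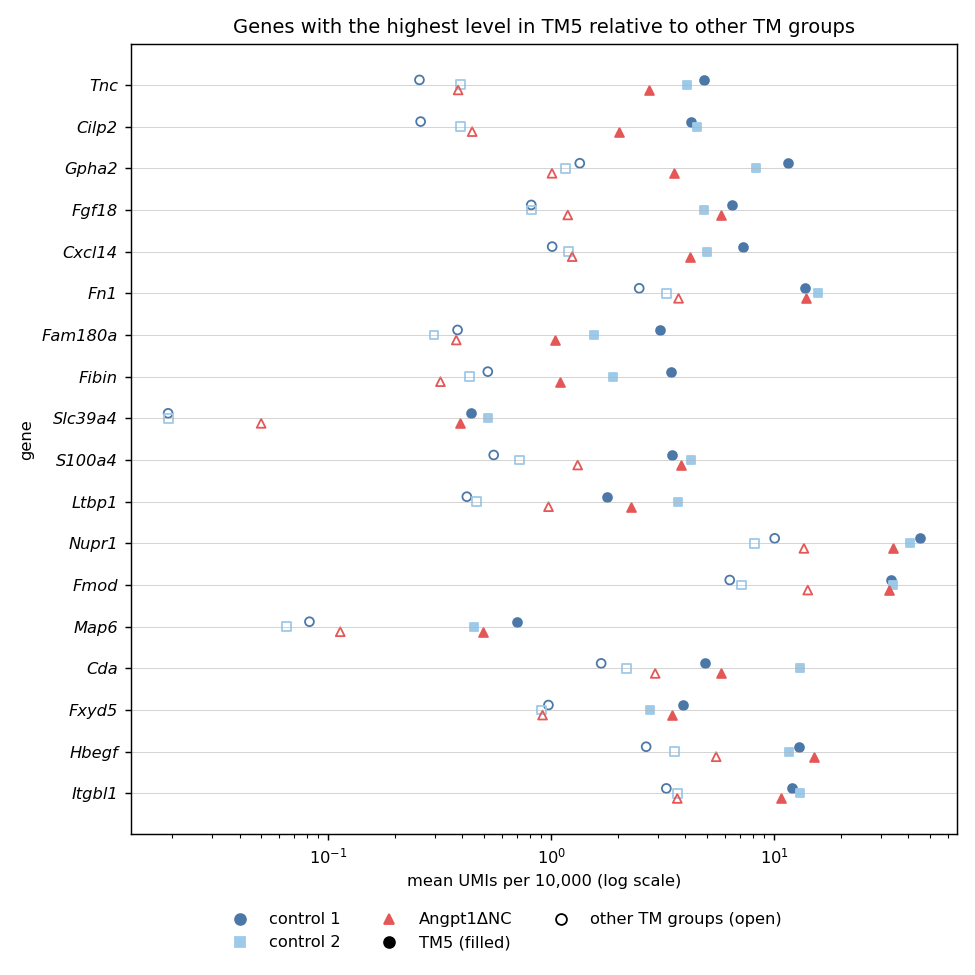
Mean UMIs per 10,000 (horizontal log axis) of 18 of the 20 genes (vertical axis) with the highest ratio of TM5 to the other TM cells, by library, with TM5 as filled and the other TM cells as open symbols. The filled symbols lie to the right of the open ones for each gene shown, with ratios over the mean of the libraries from 3.29 for *Itgbl1* to 9.0 for *Tnc*.

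The summed levels of 3 matrix lists were higher in TM5 than in the other TM cells, which include uveal and corneal groups. Summed over 22 fibrillar and other collagens outside basement membranes, the level was 240, 290 and 200 in TM5 against 94.1, 92.5 and 116. Proteoglycans and hyaluronan genes summed to 490, 571 and 555 against 232, 249 and 326, and matricellular genes to 225, 245 and 175 against 108, 119 and 141. Of the members detected in at least 25% of the TM5 cells of every library, 4 of 14 collagens, 4 of 17 proteoglycan and hyaluronan genes and 2 of 16 matricellular genes were at least 2-fold higher in every library, and 0, 1 and 1 were at least 2-fold lower. Matrix proteases and their inhibitors had ratios of 0.949, 0.880 and 1.13. Basement membrane genes were level, with TM5 at 1.06, 1.00 and 0.921 times the other TM cells. The members with the most UMIs were *Col1a1* among the collagens, *Dcn* among the proteoglycans and *Sparc* among the matricellular genes.

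Interferon-stimulated genes and the chemokine and cytokine list had lower summed levels in TM5. Interferon-stimulated genes summed to 22.1, 14.4 and 26.2 in TM5 against 96.1, 74.3 and 82.5, and chemokines and cytokines to 27.3, 24.4 and 29.5 against 120, 117 and 126. Complement genes were not lower, at 1.31, 1.17 and 1.33 times the other TM cells, and heat shock genes (1.10, 0.932 and 0.799 times) and endoplasmic reticulum stress genes (1.03, 1.07 and 0.972 times) were close to level. Of single genes, chosen after their values were seen, the lowest ratios to other TM cells were 0.0685 for the transcription factor *Cebpd*, 0.0882 for the hyaluronan-binding *Tnfaip6* and 0.107 for the chemokine *Ccl2*. *Junb*, an immediate early gene, had a ratio of 0.135.

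Markers of other cell types were mostly near 0 in TM5. Endothelial markers summed to 0.237, 0.141 and 0.155 over 8 genes, and macrophage markers to 0.209, 0.236 and 0.275 with *Adgre1* and *Mrc1* at 0 UMIs. Surface epithelium markers summed to 0.583, 0.639 and 0.588 with *Cdh1* and *Trp63* at 0, and Schwann cell markers to 0.383, 0.349 and 0.176 with *Sox10*, *Cdh19* and *Foxd3* at 0. Melanocyte markers summed to 0.605, 1.18 and 0.713, fibroblast markers to 4.91, 3.92 and 4.45, and red blood cell markers to 0.107, 0.0739 and 0.355. 2 neighbouring corneal classes were not low. The keratocyte list, led by *Lum*, summed to 93.1, 112 and 81.3 against 42.7, 44.6 and 42.5 in the other TM cells, and the corneal endothelium list, led by *Col8a1* and *Col8a2*, to 17.1, 16.6 and 15.2 against 6.39, 8.96 and 9.42. Pericyte markers summed to 2.53, 2.38 and 3.11 against 7.32, 5.85 and 2.51, most of it from *Pdgfrb* and *Cspg4*. In that list *Rgs5*, which was high in TM4, was at 0.0790, 0.0253 and 0.00769 in TM5, and *Abcc9* and *Higd1b* were at 0. Smooth muscle markers summed to 5.21, 1.06 and 4.49 against 5.21, 5.37 and 6.17, led by *Acta2* and *Tagln*.

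TM5 made up a larger share of the TM cells in the *Angpt1*ΔNC library than in either control. The share was 1.93% in control 1 (exact 95% interval 1.45 to 2.51%), 3.13% in control 2 (2.56 to 3.78%) and 6.47% in *Angpt1*ΔNC (5.42 to 7.66%). The knockout share was 2.56 times the control mean, 3.36 times control 1 and 2.07 times control 2, and the 2 controls differed 1.62-fold. With 2 libraries against 1 no permutation test can pass 0.05, and no other test of the share was run. The intervals cover counting error only. Of all kept cells the ratio was 2.30, and in cells with at least 2 of the 3 markers it was 1.89. TM7 and TM8 had the lowest ratios, 0.389 and 0.403, and TM9 and TM11 had ratios of 2.07 and 2.15. Since shares sum to a fixed total, more TM5 cells and fewer cells of the other groups cannot be told apart. The clusters were defined by genes that differed between the libraries, among them *Chil1*, and the part of this in the share was not tested.

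**Figure D3:**
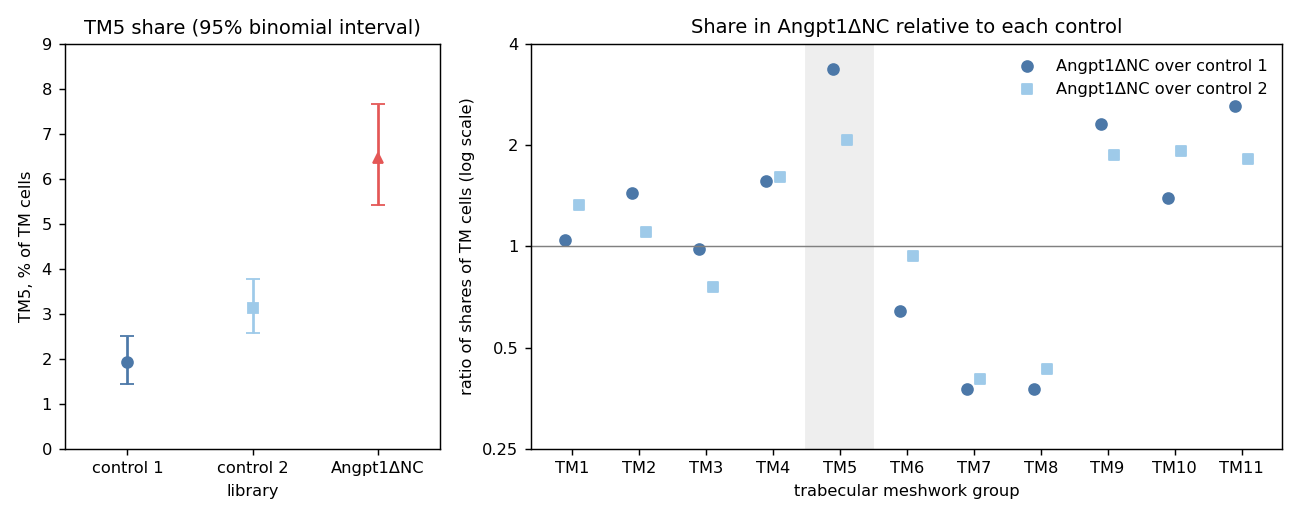
Left, TM5 cells as a percentage of all TM cells in each library, with exact 95% binomial intervals. Right, the share of each TM group in *Angpt1*ΔNC divided by that in each control (log axis), with TM5 shaded; the TM5 ratios were 3.36 and 2.07, and those of TM7 and TM8 were below 1.

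*Angpt1*, the deleted gene, was sparse in TM5 even in the controls. A UMI was found in 14 of 54 cells of control 1 (25.9%), in 10 of 104 cells of control 2 (9.62%) and in 0 of 126 *Angpt1*ΔNC cells. For the last, the exact 95% upper limit on the share of cells with a UMI was 2.89%, and the floor of 3 counts was 2.38%. In TM4 of the same libraries 61.5%, 57.9% and 0.322% of cells had one, and in surface epithelium 0.303%, 0.494% and 0%. The summed TM5 counts were 22, 22 and 0 UMIs, or 37.6, 19.4 and 0 per 1000000, at least 12.2-fold lower than the control mean when 0 is set to the floor of 3 counts in that library. 1 cell held 20.5% of these UMIs. The adjusted p was 2.85e-07 in the edgeR quasi-likelihood test. *Angpt1* was not called in Y-linked, *Xist*-free cells, which are fewer, and DESeq2 gave it no adjusted p. The gene had been kept out of the clustering, so its loss is independent of the label. The study names exon 1 as the excised part, and where the counted tags lie in the transcript is not given in the sources used here.

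The genotype comparison asked which genes differed between *Angpt1*ΔNC and control TM5 cells. UMIs were summed over the TM5 cells of each library and tested by edgeR's quasi-likelihood F-test, in which the lone knockout library is assumed to vary like the controls. Of 8135 genes tested 202 were called at an adjusted p under 0.05, 74 higher and 128 lower, which is 2.48% of genes (0.91% higher and 1.57% lower). DESeq2 gave an adjusted p for only 4350 of the 8135 genes and called 19, all among the 202. Of the 202, 66 remained under all 5 alternative edgeR settings. In Y-linked, *Xist*-free cells 145 genes were called and 103 were shared with the 202. The median log2 change over all genes tested was -0.01. With 1 residual degree of freedom, the spread behind the p-values was largely pooled across genes. A small p-value is therefore not a measure of how far the 2 controls varied for that gene. A lower level may mean fewer expressing cells or less RNA per cell.

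Many of the lower genes of smallest adjusted p had a near-identical copy, among them *Gm10260*, which had the smallest (5.15e-41), and these are given separately. *Angptl7*, a secreted angiopoietin-like protein of the cornea and meshwork (chr4:148495183-148500460, minus strand), was at 3.24, 4.32 and 0.526, a log2 change of -2.85 ± 0.30 (SE) with an adjusted p of 4.31e-18 in edgeR. The knockout value lay far below both controls, and DESeq2 called it too (adjusted p = 9.20e-10). *Chil1* was at 25.6, 29.5 and 7.11, a log2 change of -1.87 ± 0.25 (edgeR adjusted p = 1.18e-10). *Chil1* UMIs were found in 92.6%, 94.2% and 66.7% of the cells, so both the share of positive cells and the level were lower. Its DESeq2 adjusted p was 3.11e-07. *Chad*, the cartilage matrix protein chondroadherin, fell from 5.67 and 5.89 to 2.1 (log2 change -1.54, edgeR adjusted p = 1.77e-06), and *Gpha2* fell from 11.5 and 8.25 to 3.56 (log2 change -1.63, adjusted p = 1.44e-07). The controls were close to each other for these genes.

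The metalloelastase *Mmp12* was at 2.86, 1.08 and 0.215 (log2 change -3.03, edgeR adjusted p = 8.14e-16). Here the controls differed from each other, 1 cell held 18.6% of the UMIs, the log2 change without control 1 was -2.25 and DESeq2 gave an adjusted p of 0.254. *Mmp12* is known best from macrophages, whose markers summed to 0.209, 0.236 and 0.275 in TM5. Without the 2, 9 and 13 cells that had a leukocyte UMI its log2 change was -2.95.

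Adhesion, cytoskeletal and secreted genes were among those called higher. *Cnmd*, the secreted angiogenesis inhibitor chondromodulin, was at 0.0473, 0.0601 and 0.753, or 4, 7 and 92 UMIs (log2 change 3.45 ± 0.42, edgeR adjusted p = 1.53e-13, DESeq2 adjusted p = 0.0373). *Emb*, the cell adhesion glycoprotein embigin, was at 2.35, 1.56 and 7.02 (log2 change 1.83, edgeR adjusted p = 3.25e-11, DESeq2 adjusted p = 0.000598). The cytoskeletal adaptor *Pdlim1* was at 0.296, 0.181 and 0.839 (log2 change 1.95, edgeR adjusted p = 1.62e-06), and DESeq2 did not call it (adjusted p = 0.413). The knockout library was above both controls for all 3. The protease inhibitor *Serpina3n* was at 0.0320, 0.155 and 0.569, with a log2 change of 2.41 that was 1.79 without control 1 and 3.36 without control 2.

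2 monocyte chemokines were also called higher. *Ccl2* was at 3.16, 1.43 and 5.01 (log2 change 1.53, edgeR adjusted p = 2.24e-07), but 1 cell held 21.2% of its UMIs and the log2 change was -0.48 in the cells with a Y-linked UMI and no *Xist*. *Ccl7* was at 0.142, 0.410 and 1.20 (log2 change 2.14, edgeR adjusted p = 3.36e-09), with 22.8% of UMIs in 1 cell and 3.04 without control 2. Both remained called without the cells that had a leukocyte UMI, at log2 changes of 1.72 and 2.36.

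The other TM5 markers did not pass the test. *Tnc* had a log2 change of -0.56 (edgeR adjusted p = 0.344), *Svep1* of -0.51 (adjusted p = 0.561) and *Myoc* of -0.53 (adjusted p = 0.382). *Myoc* passed with equal numbers of cells per library, at a log2 change of -1.17 and an adjusted p of 0.00155, and in Y-linked, *Xist*-free cells, at -0.93 and 0.0288. Its log2 change was -0.01 without control 2, -0.89 without control 1 and -0.41 without cells with a leukocyte UMI (adjusted p = 0.750). Of the 20 genes highest in TM5, *Cilp2* (-1.10), *Gpha2*, *Fam180a* (-1.0) and *Fibin* (-1.17) were called lower and none was called higher, with *Fgf18* at 0.05 and *Fn1* at -0.08. The log2 change of *Fam180a* was -0.53 without control 1, and *Fibin* was not called in Y-linked, *Xist*-free cells.

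**Figure D4:**
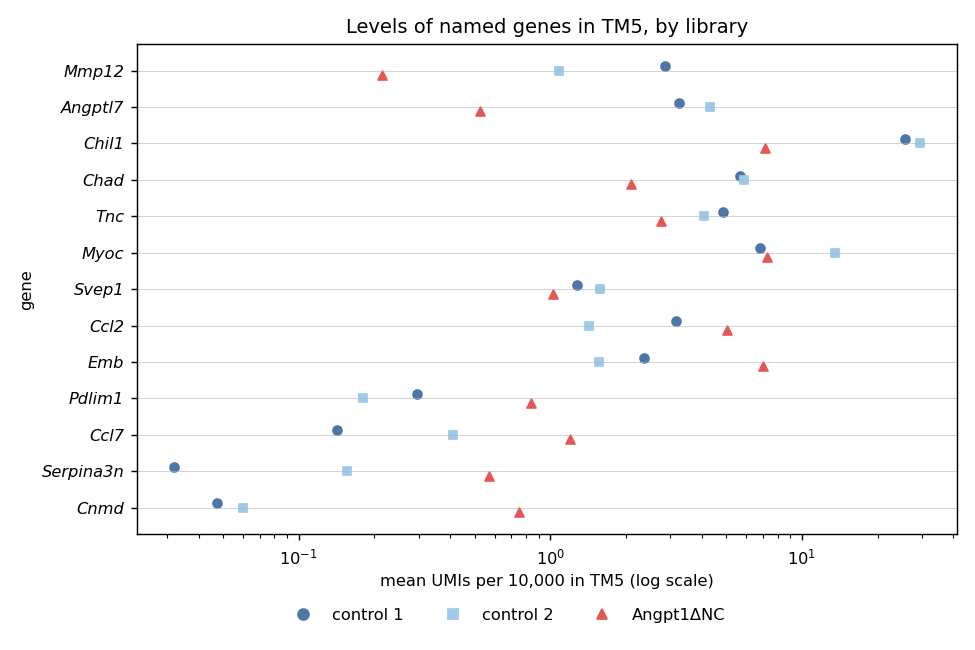
Mean UMIs per 10,000 in TM5 (horizontal log axis) of the genes named from the genotype test that have no near-identical copy, with *Tnc*, *Svep1*, *Myoc* and *Chad* added (vertical axis), by library. *Angptl7* was at 3.24, 4.32 and 0.526 and *Cnmd* at 0.0473, 0.0601 and 0.753, while *Tnc*, *Svep1* and *Myoc* did not pass the test.

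41 of the 202 called genes had a near-identical transcript elsewhere in the annotation (at least 95% identity over at least 200 bases), so their reads cannot be assigned with certainty. *Il11ra1* had 57, 126 and 1012 UMIs and its copy *Gm13305* had 558, 1052 and 272. Their sum was 615, 1178 and 1284, or 10.5, 10.4 and 10.0 per 10,000 UMIs, so the summed pair was level while its 2 members moved in opposite directions. *Sec61b* with *Gm10320* was also level in sum, at 4.68, 4.17 and 4.28, and *C1ra* with *C1rb* was at 1.28, 1.36 and 1.56. *Rps18* with its 2 copies summed to 9.26, 8.99 and 14.8, *Tpm3* with *Tpm3-rs7* to 5.06, 4.496 and 6.57, and *C1s1* with *C1s2* to 1.30, 1.09 and 2.06, each highest in *Angpt1*ΔNC. *Rpl29* and *BC023719* also have copies, and these genes are given as uncertain.

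The list counts of this comparison stand beside 0.91% of all genes tested called higher and 1.57% called lower. Among matricellular proteins, 22 were tested, with 1 called higher, 3 called lower and a median log2 change of -0.36. *Sparcl1* (0.984, 0.745 and 0.239, log2 change -1.72), *Nov* (0.277, 0.367 and 0.0882) and *Chil1* were lower, and *Comp*, a cartilage oligomeric matrix protein, was higher with 35.3% of its UMIs in 1 cell. 2 of 19 other collagens were called lower. *Col3a1* was at 8.05, 6.22 and 3.17 (log2 change -0.92, edgeR adjusted p = 0.0150) and *Col12a1* at 18.8, 19.9 and 11.04 (-0.84, edgeR adjusted p = 0.0226). The basement membrane chains *Col4a3* and *Col4a4* were lower, at 23, 34 and 15 and at 25, 32 and 14 UMIs. *Mfap4*, a microfibril protein, was at 13.6, 16.3 and 7.93. None of 20 matrix proteases and inhibitors tested was called. *Col3a1*, *Col12a1*, *Col4a3*, *Col4a4*, *Mfap4*, *Nov* and *Comp* were not called in Y-linked, *Xist*-free cells. *Col12a1* and *Col4a3* were called in 1 of the 5 alternative edgeR settings only, and *Col4a4* in 2. DESeq2 called none of these collagen genes.

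Of 8 keratocyte genes tested, *Angptl7*, *Ptgds* and *A2m* were called lower, with a list median of -0.62. *A2m* was called in 3 of the 5 alternative edgeR settings. *Ptgds*, a prostaglandin D synthase, was at 0.639, 1.41 and 0.408, and its log2 change of -1.64 was -0.88 without control 2. The Wnt ligand *Wnt11* (2.78, 1.94 and 0.967) and the secreted Wnt modulator *Sfrp2* (3.17, 2.99 and 1.61) were the 2 of 15 Wnt genes called, both lower. *Fst*, the activin antagonist follistatin, was the 1 call of 30 TGF-beta and BMP genes, at 2.14, 2.12 and 0.842. In the retinoic acid list *Cyp26b1*, which degrades retinoic acid, rose from 0.585 and 0.482 to 1.44 (log2 change 1.58, edgeR adjusted p = 1.33e-05). *Aldh1a2*, which makes retinoic acid, was called higher at 6, 11 and 50 UMIs, and the binding protein *Crabp2* was called lower at 1.33, 0.434 and 0.279, with -0.58 without control 1. In all 13 genes of that list were tested.

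Beyond *Angpt1* and *Angptl7*, 1 of 25 vessel-directed ligands and co-factors was called, the vasodilator peptide *Adm*, at 0.104, 0.277 and 0.467 (log2 change 1.15, and 1.80 without control 2). *Igfbp6*, which binds insulin-like growth factors, was higher at 4.75, 6.38 and 13.4 (log2 change 1.13, edgeR adjusted p = 0.000148), and *Igf1* was lower at 0.522, 0.680 and 0.263 but was called in 1 of the 5 alternative edgeR settings only. The metal-binding protein *Mt1* was higher at 14.5, 21.7 and 39.0, above both controls. *Tpm2*, a tropomyosin of the contractile machinery, was higher at 1.74, 1.81 and 4.17 (log2 change 1.21, edgeR adjusted p = 0.000127). Smooth muscle actin (*Acta2*) was called higher, but its levels of 2.70, 0.448 and 2.79 put control 1 beside the knockout, and its log2 change was 0.17 without control 2 and 2.60 without control 1.

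Of 15 interferon-stimulated genes tested, 4 were called higher, beside 0.91% of all genes tested, and none lower, with a median of 0.86. *Ifi27l2a* was at 1.64, 0.205 and 2.49 and *Isg15* at 0.816, 0.265 and 0.951, so control 1 lay close to the knockout, and the log2 changes without control 2 were 0.56 and 0.41. Without control 1 they were 3.49 and 1.82. *Xaf1* had 4, 10 and 38 UMIs and *Rtp4* 20, 19 and 68. None of the 4 was called in Y-linked, *Xist*-free cells. The MHC class I gene *H2-T23* was the 1 call of 12 in its list (median 0.49). Of 15 heat shock genes *Dnajb1* was called lower at 2.70, 1.93 and 0.950, as were the near-identical *Hspa1a* and *Hspa1b*. *Hspa1a* was at 3.70, 0.779 and 0.476, and its log2 change of -1.87 was -0.43 without control 1 and -2.61 without control 2. 19 cholesterol synthesis genes had a median of -0.60, with *Sc5d* and *Insig1* called lower. Of 27 glaucoma genes tested *Angpt1* alone was called. *Pdia3*, an endoplasmic reticulum disulfide isomerase, was at 7.23, 7.54 and 3.70.

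Few markers of other cell types were called. *Ttr*, a retinal pigment epithelium gene, was lower at 25, 15 and 1 UMIs beside a summed level of that list of 0.708, 0.288 and 0.105, and the part of such RNA in other results was not tested. The fibroblast genes *Ly6a* (6, 9 and 62 UMIs) and *Pi16* (16, 25 and 3 UMIs) were called in opposite directions. The log2 change of *Ttr* was -4.79 and -2.49 without control 1, and that of *Pi16* was -3.30, with -2.51 without control 1 and -2.70 without control 2. Single calls in further lists were *Ptgs1*, *Glul*, *Hes1*, *Lif* and *Fosl2*, higher, and *Slc12a2* and *Ccl11*, lower, the last with 82% of its UMIs in 1 cell. Of the sex-linked genes *Xist* was higher, at 0, 0 and 574 UMIs, and the Y-linked *Eif2s3y* lower, at 44, 65 and 26 UMIs. No gene was called in the lists for mechanosensing, integrins and cadherins, cell cycle, corneal endothelium, pericyte, endothelium, Schwann cell, melanocyte, macrophage, surface epithelium or red blood cell, of which between 1 and 13 members were tested. Across all lists 53 members were called, beside 202 of all 8135 genes tested (2.48%). Some genes stand in more than 1 list, and the number of distinct members tested was not counted. The 13 called under all 5 edgeR alternatives were *Angptl7*, *Chil1*, *Chad*, *Sparcl1*, *Dnajb1*, *Pdia3* and *Hspa1a*, lower, and *Ccl7*, *Cyp26b1*, *Igfbp6*, *Tpm2*, *C1ra* and *C1s1*, higher. DESeq2 also called *Angptl7*, *Chil1* and *Chad*. *Hspa1a*, *C1ra* and *C1s1* have near-identical copies, so their calls are uncertain. *C1ra* with *C1rb* summed to 1.28, 1.36 and 1.56 per 10,000 UMIs.

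The last comparison asked whether the genotype difference of TM5 differed from that of the other TM cells of the same libraries. In an interaction fit with library as a block, 190 of 13274 genes were called (1.43%), 95 (0.716%) in each direction. DESeq2 called 15. When the other TM cells were drawn with the same make-up of groups in each library 99 genes were called, and with TM4 alone as the comparison 147. 48 of the 190 were called in both of these.

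Genes whose difference was lower in TM5 included *Angptl7*, *Apoe*, *Spp1* and *Col3a1*. *Apoe*, a lipid carrier, was at 16.6, 19.4 and 7.47 in TM5 and at 41.9, 62.9 and 84.2 in the other TM cells, a difference of log2 changes of -1.71 ± 0.13 (edgeR adjusted p = 2.44e-35). Its levels thus moved in opposite directions in the 2 sets of cells. Osteopontin (*Spp1*) was at 30.05, 36.0 and 21.5 in TM5 against 12.9, 16.1 and 33.4, with a difference of -1.67 ± 0.14 (edgeR adjusted p = 1.07e-30). *Angptl7* was at 2.12, 3.36 and 2.99 in the other TM cells, and its difference was -2.49 ± 0.22 (edgeR adjusted p = 1.19e-26). *Col3a1* differed by -1.72. These 4 genes were also called against TM4 alone, at -1.82, -1.13, -1.39 and -0.86. *Ccl5* was called too, but 98.2% of its TM5 UMIs came from 1 cell of control 2.

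Genes whose difference was higher in TM5 included *Cyp1b1*, the congenital glaucoma gene that encodes a cytochrome P450. It was at 0.257, 0.388 and 0.619 in TM5 and at 2.39, 2.45 and 0.890 in the other TM cells, a difference of 2.33 ± 0.29 (edgeR adjusted p = 1.72e-12) that was 2.15 against TM4 alone. In TM5 by itself its log2 change of 1.01 did not pass the test (edgeR adjusted p = 0.0730). *Cebpd* was at 2.01, 1.20 and 1.25 in TM5 and at 31.9, 29.2 and 8.17 elsewhere, a difference of 1.44. *Mt1* differed by 0.90 and *Ccl7* by 2.36, the last 3.48 without control 2.

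The markers of TM5 had lower differences as well. *Svep1* differed by -1.10 ± 0.25 (edgeR adjusted p = 0.00145), with a log2 change of 0.61 in the other TM cells, and *Chil1* by -0.79 ± 0.14 (adjusted p = 1.19e-05). *Tnc* differed by -0.76 ± 0.21 with an adjusted p of 0.0281, which was 0.391 with the matched make-up and 0.0547 against TM4. *Chil1* remained called in both, *Svep1* with the matched make-up only (adjusted p = 0.0816 against TM4).

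The list counts of the interaction stand beside 0.716% of all genes tested in each direction. By list, 8 of 24 matricellular genes were called lower, *Tnc*, *Sparc*, *Sparcl1*, *Postn*, *Spp1*, *Nov*, *Chil1* and *Svep1*, and *Thbs4* higher. The list median was -0.46, beside -0.02 over all genes tested. Of the 8, *Tnc*, *Sparcl1*, *Postn* and *Nov* were not called with the matched make-up, *Tnc*, *Sparcl1*, *Nov* and *Svep1* were not called against TM4 alone, and DESeq2 called *Spp1* only. *Sparc*, at 118, 124 and 93.5 in TM5 and 39.9, 38.8 and 55.9 elsewhere, differed by -0.68. *Fmod* was level in TM5 and higher in the other TM cells of the knockout, and differed by -0.93 (edgeR adjusted p = 9.90e-09). 7 of 25 interferon-stimulated genes were called higher, beside 0.716% of all genes tested. None of the 7 was called with TM4 alone, and *Isg15* was the only one called with the matched make-up. 3 of 14 MHC class I genes were called higher, *H2-D1*, *Tap1* and *H2-K1*. *H2-K1*, which alone of these was also called both with TM4 and with the matched make-up, was at 3.85, 2.89 and 3.28 in TM5 and 10.5, 10.6 and 5.50 elsewhere. 4 of 21 cholesterol synthesis genes were called lower, none with the matched make-up. Of 8 keratocyte genes *Kera* (1.29), *Aldh3a1* (0.80) and *Thbs4* (1.34) were called higher and *Angptl7* lower, with a list median of 0.004. *Kera* and *Aldh3a1* were not called against TM4 alone.

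**Figure D5:**
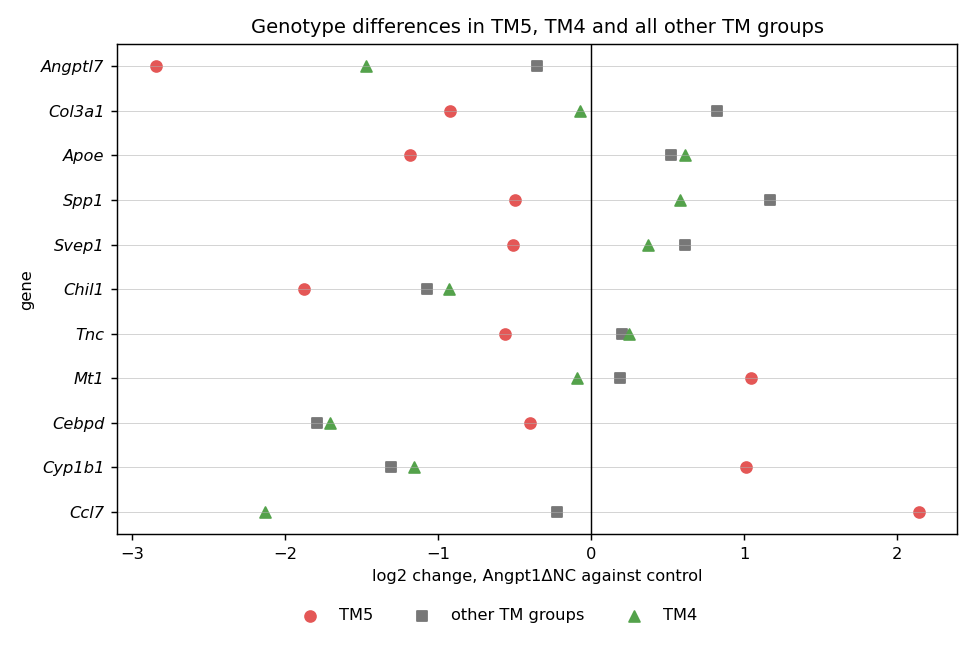
Log2 change between *Angpt1*ΔNC and control (horizontal axis) in TM5, in TM4 and in all other TM cells, for the genes reported from the interaction test and for *Tnc*, *Svep1* and *Chil1* (vertical axis); *Ccl5*, at 0 in a group, is not shown. The TM5 point lies left of the other-TM point for *Apoe*, *Spp1*, *Angptl7* and *Col3a1* and right of it for *Cyp1b1*, *Ccl7*, *Cebpd* and *Mt1*.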

How the data were processed

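Single-cell RNA-seq of the dissected angle was analysed from the 3 droplet libraries. The authors deposited UMI counts per gene and cell from Cell Ranger (2.1.1 per the labels, 3.0.2 per the matrix headers) on mm10. In Seurat 3.1.3 they kept cells with at least 200 genes, at least 1000 UMIs and at most 10% mitochondrial UMIs, removed doublets before deposit, and clustered TM cells on 18 principal components of integrated values, leaving out *Angpt1* and sex-linked genes. The 6934 integrated natural log gene columns of the deposited cell tables were not used.

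TM5 counts were summed per library and tested with edgeR 4.0.16 in R 4.3.3 (TMM, filterByExpr, two-sided, Benjamini-Hochberg, adjusted p under 0.05). DESeq2 1.42.0 was an alternative, and an adjusted p it gave as NA stayed NA. The scripts were tested on simulated data. There the genotype test called 17.2% of 2-fold and 78% of 4-fold changes, and the interaction test 35% and 84%. A gene that was not called may therefore still differ. Ratios of levels used 0.1 added UMIs per 10,000. Positions are from a GRCm38 annotation.

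Named genes were the TM list with *Rgs5* and *Acta2*, the 20 highest ratios of TM5 to other TM cells, the 10 higher and 10 lower genes of smallest adjusted p in the genotype test that passed an absolute log2 change of 1 and lay outside both controls, 5 higher and 5 lower in the interaction, and called list members with the most abundant examples; a few of these are not reported here. Members, lists and rules were chosen with earlier results of these data known. The alternatives were DESeq2 size factors in edgeR, every gene with a UMI, cells drawn down to one number per library, Y-linked *Xist*-free cells, TM4 as the comparison, other pseudocounts, thinning and leaving out each library. A matched make-up of the comparison cells and the removal of cells with a leukocyte UMI were added after seeing the data.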

Additional observations from a re-analysis of the deposited data

Results flagged for a closer look

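9 genes are given here because the difference between *Angpt1*ΔNC and control in TM5 departed from that in the other TM cells, by the edgeR interaction test. The differences of log2 changes were 2.33 for *Cyp1b1*, 2.36 for *Ccl7*, 1.44 for *Cebpd* and 0.90 for *Mt1*, and -2.49 for *Angptl7*, -1.71 for *Apoe*, -1.67 for *Spp1* and -1.72 for *Col3a1*. *Ccl5* had an adjusted p of 3.41e-24 with a group at 0, and 1 cell held 98.2% of its TM5 UMIs. *Cebpd* and *Cyp1b1* had log2 changes of -1.79 and -1.30 in the other TM cells, and *Spp1* and *Col3a1* had 1.17 and 0.82 there.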

How the results depend on the processing

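No paired analysis was possible because the groups share fewer than 2 replicate numbers. In the TM5 genotype test DESeq2 called 19 genes (6 higher, 13 lower), and without cells with a leukocyte UMI 84 were called lower. The other settings called 145 to 200 genes in all. In the interaction DESeq2 called 15 (7 higher, 8 lower), the matched make-up 99 (49 higher, 50 lower), and TM4 alone 57 higher. With a pseudocount of 1 only 21 genes were at least 2-fold higher in TM5 in every library and 12 of the 20 highest were shared, and without the *Angpt1*ΔNC library the count was 119. Leaving out a library kept the direction of 199 to 202 genotype calls and of 190 interaction calls, gave share ratios of 2.07 to 3.36 and 70 to 119 such genes, and left 17 to 18 of the 20 highest shared. The control share of *Angpt1*-positive TM5 cells exceeded that of the knockout by 17.8 percentage points (9.62 to 25.9 with 1 control) and by 2.81 after thinning to 1000 UMIs. In Y-linked, *Xist*-free cells the direction turned for *Ccl2* (-0.48 in TM5 and -0.49 in the interaction) and *Cxcl10* (-6.61, interaction), and against TM4 for *Kera* (-0.52), *Aldh3a1* (-0.25) and *Il11* (1.80). The causes were not tested. With 54 TM5 cells in control 1 and 1 residual degree of freedom, sparse genes were limited by depth.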
